A study of Anopheles gambiae with 16 samples.

Results

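A set of 105 mosquito probe sets gave shared levels in circulating hemocytes and carcasses and lower levels in heads of adult Anopheles gambiae females, out of 16884 mosquito probe sets on the array (0.622%). A probe set is a group of short array probes read together, and its intensity is the brightness of the labelled RNA bound to it. Some probe sets match more than 1 transcript, as described below for the letters of their IDs. The members were chosen from the measured values on the log2(intensity + 16) scale, which all differences below use. The hemocyte and carcass means both had to lie at least 1 above the head mean and within 1 of each other, and the highest of the 4 head arrays had to lie below the lowest of the 8 others. Of the 16884, 291 met the condition on the rises over heads, 130 of these also had hemocyte and carcass means within 1, and 105 had no overlap of arrays besides. These values therefore chose the set, and the levels in heads, hemocytes and two-round carcasses are given as a description with no test.

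All mosquitoes were naive G3 strain females 1 to 2 days after eclosion according to the series design, and the titles number biological replicates 1 to 4 within each group. They do not say whether same-numbered one-round and two-round carcass arrays are separate animals. Heads were pooled from 40 females and carcasses, the body left after bleeding and decapitation, from 20. Hemocytes came from 1000 females by the source name and from 500 by the collection note, which calls these females infected. Heads (n = 4), carcasses (n = 4) and hemocytes (n = 4) had 80 ng of RNA amplified in 2 rounds, and 4 further carcass arrays had 1000 ng amplified in 1 round. Heads and carcasses were extracted with Trizol, whereas hemolymph went directly into a column lysis buffer, so the way of collection and extraction cannot be told apart from the tissue. For head replicate 4 the source name reads as a carcass pool, whereas title and tissue entry read head. It is treated as a head array here, and 111 probe sets met the rule without it, 100 of them members.

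Hemocytes, the insect blood cells, are known for phagocytosis, melanization and the secretion of immune factors into the hemolymph. The carcass of a young female holds fat body, flight muscle, epidermis, gut and ovaries, and also hemocytes that sit on these tissues rather than circulate. The head holds mainly brain, eyes, antennae and mouthparts, with some fat body. In such bulk samples, fewer cells of a type and less RNA per cell cannot be told apart. The files pair no probe set with a gene, and 0 of the 16884 IDs could be matched to a table of 15165 genes. No member is therefore named by gene, and no list of hemocyte, fat body, muscle or head markers could be checked. An ID holds a chromosome arm, or UNKN where none is given, a cluster number, and the mark CDS, UTR or neither, a reading of the IDs that no source used here records. Under that reading Ag.2R.551.0_CDS_at lies on arm 2R in cluster 551. The IDs give no start or end, and none is given here.

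The arrays differed in labelling as well as in tissue. The 3' over 5' intensity ratio of the Gapdh control probe sets was 72.8 ± 28.0 in heads (SD, n = 4), 46.8 ± 10.7 in hemocytes, 32.0 ± 6.25 in two-round carcasses and only 1.62 ± 0.225 after 1 round. The actin control gave another order, at 25.4 ± 3.32 in two-round carcasses, 20.7 ± 3.57 in heads, 12.8 ± 1.23 in hemocytes and 2.63 ± 0.321 after 1 round. A high ratio means that the 5' end of the transcript was labelled less than its 3' end. Background was set on each array at the 95th percentile of the 4502 probe sets whose IDs begin with Pf., read as malaria parasite probe sets, and lay between 12.51 and 15.28 on two-round arrays and between 8.83 and 10.02 on one-round arrays. Of the mosquito probe sets, 13061 lay above it on at least 4 arrays and are called bright here. All 105 members are among them, which largely follows from the rule. Of the 788 probe sets with a mean of at least 1000 in two-round carcasses, 35 were below background on all 4 hemocyte arrays. Of the 745 with such a mean in heads, 12 were. The Gapdh ratios of heads, 37.5 to 102, overlapped those of hemocytes, 36.4 to 59.5, and of two-round carcasses, 27.3 to 41.2. The actin ratios of heads, 17.5 to 25.6, were above those of hemocytes, 11.8 to 14.6, and overlapped those of two-round carcasses, 22.3 to 29.4. The part of either in the low head levels was not tested.

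The members stood well above the median bright probe set in hemocytes and carcasses and close to it in heads. Per array, the median member over the median bright probe set came to 6.87 ± 0.677 in hemocytes (SD, n = 4), 5.53 ± 0.624 in carcasses after 2 rounds, 5.04 ± 0.743 in carcasses after 1 round and 1.22 ± 0.181 in heads. Their median intensity was 63.4, 50, 41.1 and 46.1 on the 4 head arrays, 241, 291, 218 and 241 on the hemocyte arrays and 212, 236, 204 and 195 on the two-round carcass arrays. On the one-round carcass arrays, which played no part in the choice, it was 136, 169.7, 247 and 133. The median of all bright probe sets stayed between 30.49 and 44.09 on all 16 arrays. The head arrays were the low ones for the members, an order that the rule required against hemocytes and two-round carcasses. The bright probe sets as a whole did not show this order. Members were above background on all 4 two-round carcass arrays in 105 cases, on all 4 hemocyte arrays in 104, on all 4 one-round carcass arrays in 100 and on all 4 head arrays in 69. Of all 16884 probe sets the corresponding numbers were 8230, 8073, 9036 and 8516. A mean at least 1 above heads on the log2(intensity + 16) scale lies above the background of every two-round array. The hemocyte and two-round carcass counts of the members therefore largely follow from the rule. A further 23 members were above background on 1 to 3 head arrays and 13 on none. Low in heads therefore meant dimmer but measurable for most members.

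**Figure D1:**
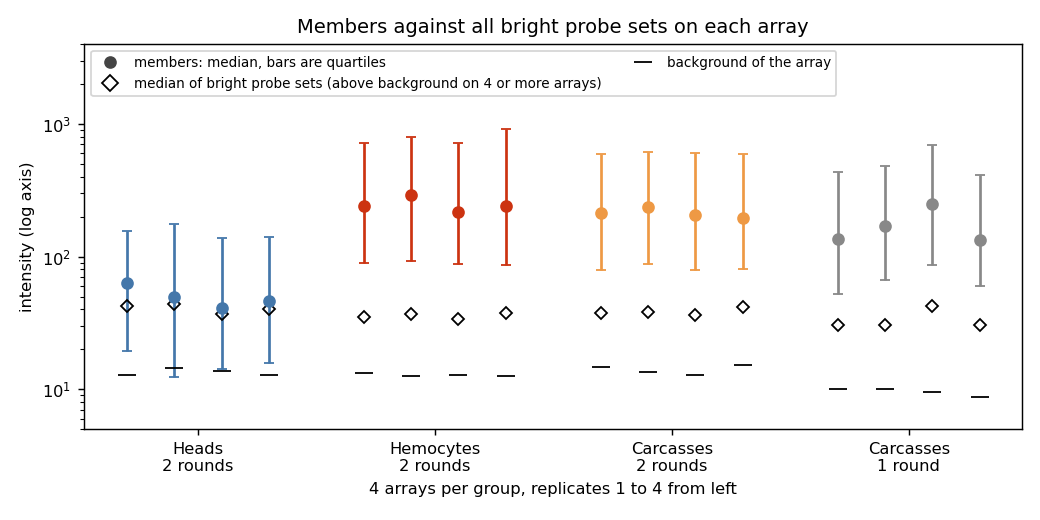
Intensity (log axis) on each of the 16 arrays, in 4 groups of 4. Filled points are the median over the 105 members with bars from the lower to the upper quartile, open diamonds the median over the bright probe sets, and dashes the background of the array. The member medians of the heads (41.07 to 63.4) lie below those of every other array, the lowest of which is 132.9 in one-round carcasses, while the open diamonds stay between 30.49 and 44.09.

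The size of the difference varied widely among the members. The hemocyte mean lay 1.03 to 4.46 above the head mean with a median of 1.79, and the two-round carcass mean 1.00 to 5.19 above it with a median of 1.58. Over all 16884 probe sets the medians of these differences were -0.004 and -0.049. A difference of at least 2 over heads was reached by 38 members in hemocytes and 28 in carcasses, and one of at least 3 by 8 and 7. Between hemocytes and carcasses, 68 members had the higher mean in hemocytes, against 56.1% of all probe sets, and 37 in carcasses. The median difference was 0.17 over the members, 0.135 over bright probe sets and 0.058 over all probe sets. In 82 members the 4 hemocyte and 4 two-round carcass arrays overlapped, in 18 all hemocyte arrays were the higher ones and in 5 the lower ones. The same order without overlap was found in 21.2% of all probe sets with hemocytes higher and in 12.2% with hemocytes lower, and the rule itself keeps such differences small among the members. At the limits of the rule, the smaller rise over heads was 1.0038 at the member nearest the limit and 0.9993 at the nearest probe set outside. The distance between hemocyte and carcass means was 0.9863 just inside and 1.0011 just outside, and the gap between the lowest high array and the highest head array was 0.0309 and -0.0111.

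**Figure D2:**
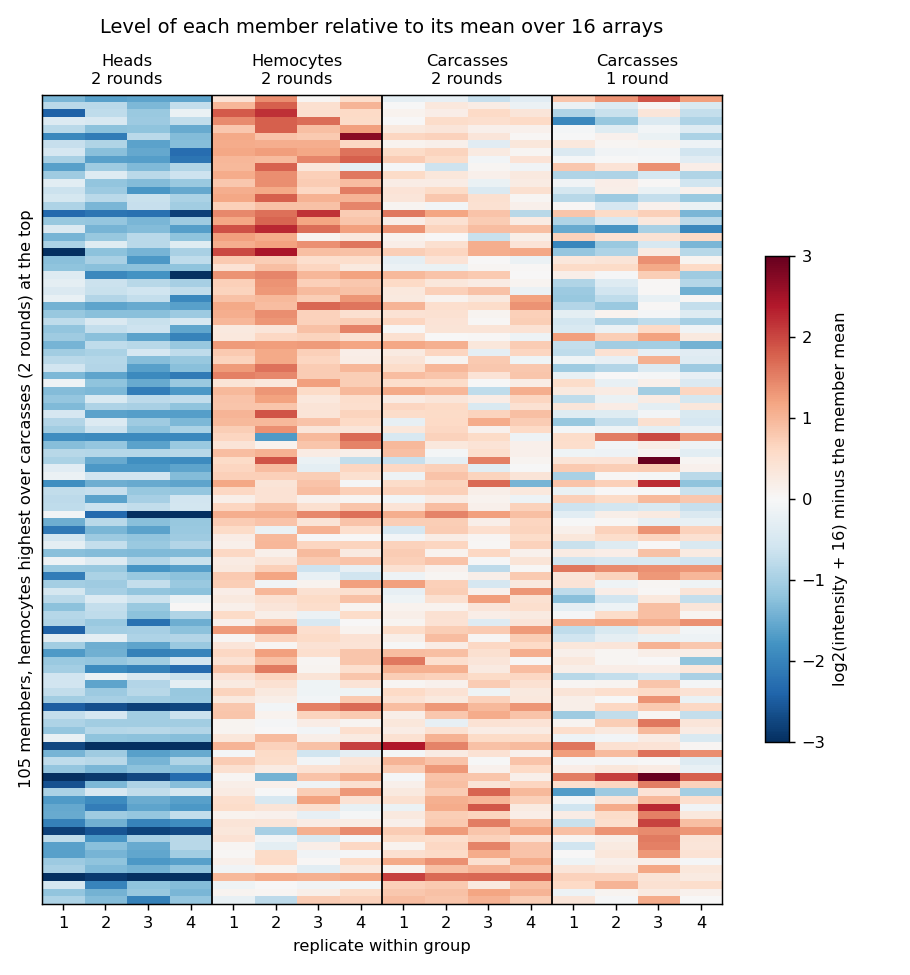
Each row is 1 of the 105 members and each column 1 of the 16 arrays. Colour is log2(intensity + 16) minus the mean of that member over all 16 arrays, cut at 3 either way, and rows run from the highest hemocyte minus two-round carcass difference (0.99) at the top to the lowest (-0.78) at the bottom. The 4 head columns are blue in nearly every row, hemocyte and two-round carcass columns are mostly red, and the one-round carcass columns are mixed.

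The gap between the highest head array and the lowest hemocyte or carcass array was 0.59 at the median member and at least 2 in 3 members. It was widest for Ag.2L.191.2_s_at, which measured 11.2, 47.6, 41.1 and 24.1 in heads, 892, 986, 952 and 1028 in hemocytes and 1915, 1502, 1511 and 1540 in two-round carcasses. Even its lowest hemocyte array, 892, was far from its highest head array, 47.6, and 3 of the 4 head arrays were above background. Its one-round carcass arrays measured 736, 739.8, 594 and 544. Ag.2R.551.0_CDS_at measured 75.8, 54.6, 39.8 and 32.2 in heads, 1213, 953, 1102 and 2482 in hemocytes, 3187, 1672, 1104 and 1152 in two-round carcasses and 1820, 814, 784 and 618 after 1 round. Replicate 1 was the highest in heads and in both carcass groups, whereas in hemocytes replicate 4 was.

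Ag.2R.2522.0_CDS_a_at had steady head values of 106, 92.6, 80.6 and 83.8 and two-round carcass values of 1262, 1657, 1314 and 1682. Its hemocyte values were less even, at 1164, 620.2, 1915 and 2186, with replicate 2 the low one, and its one-round carcass values were 749, 1031, 1144 and 1026. Ag.2R.623.0_CDS_s_at was brighter in heads, at 208, 252, 163 and 169, and close in the other two-round tissues, at 1100, 1700, 1020 and 1281 in hemocytes and 1373, 1346, 1011 and 1528 in carcasses. After 1 round the carcass arrays read 798, 750.3, 813 and 819.7, all above the highest head array. These 4 members thus ranged from near background to clearly detected in heads, and all had hemocyte and two-round carcass means near or above 1000.

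**Figure D3:**
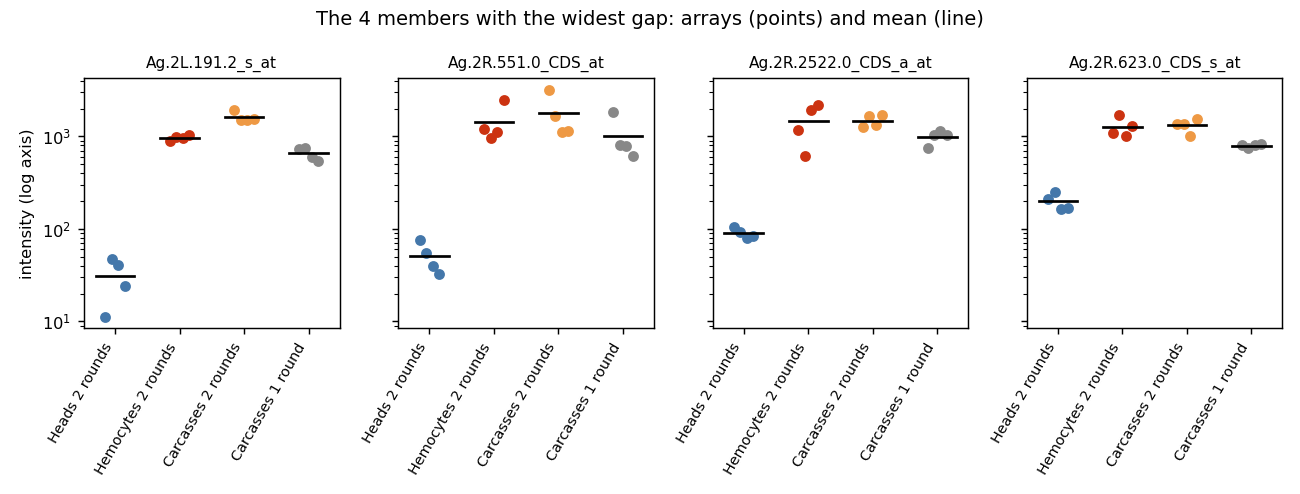
Intensity (log axis) of the 4 members with the widest gap between heads and the other two-round tissues, 1 panel each. Points are single arrays and the line is the mean of 4. In every panel the 4 head points lie below all 12 others, one-round carcasses included. The highest head point is 47.6 for Ag.2L.191.2_s_at and 252 for Ag.2R.623.0_CDS_s_at.

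The 2 members with the highest average of hemocyte and two-round carcass means were not among the 4 with the widest gap. Ag.2L.29.0_CDS_a_at averaged 5240 ± 706 in hemocytes and 3540 ± 930 in two-round carcasses (SD, n = 4), and its head arrays spread from 203 in replicate 4 to 1667 in replicate 1, with 554 and 620 between. Its lowest carcass array, 2178 in replicate 4, was only a little above the highest head array. Ag.X.71.2_s_at averaged 5990 ± 3410 in hemocytes, where replicates 1 and 2 read 7708 and 9953 and replicates 3 and 4 read 3016 and 3283. It averaged 2714 ± 409 in two-round carcasses and 1128 ± 616 in heads. In all, 21 members had a mean of at least 1000 in hemocytes, 21 in carcasses after 2 rounds, 10 in carcasses after 1 round and 2 in heads, while 28, 30, 34 and 70 had a mean under 100.

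For the 13 members below background on all 4 head arrays only a lower bound on the fold can be given, taken as the ratio of geometric means between the 4 bright arrays and the 4 head backgrounds. Ag.3L.1690.0_CDS_at was at least 8.96-fold higher in hemocytes, at 103, 86, 162 and 147, and at least 6.02-fold higher in two-round carcasses, at 93.2, 59.9, 63.5 and 122. Its one-round carcass arrays were much lower, at 13.1, 9.09, 39.5 and 16.8, with replicate 2 below background. Ag.2L.1283.0_CDS_at was at least 5.57-fold higher in hemocytes, at 58.5, 44.6, 84.9 and 143, and at least 4.56-fold higher in two-round carcasses, at 94.2, 54.6, 59.2 and 46.9. After 1 round it read 65.3, 37.2, 50.1 and 34.7, which overlapped the two-round values. Over the 13 members the bounds ran from 2.13 to 8.96 for hemocytes and from 1.79 to 6.02 for carcasses.

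Within the limits of the rule, some members leaned to 1 of the 2 tissues. Ag.2R.477.0_CDS_a_at leaned most to hemocytes, at 59, 134, 43.1 and 65.8 against 30.9, 31.9, 18.9 and 29 in two-round carcasses, with heads below background at 3.55 ± 1.69 (SD, n = 4). Next was Ag.2R.3723.0_s_at, at 204, 360.2, 137 and 206 in hemocytes, 93, 121, 111 and 80.8 in carcasses and 46.8, 46.2, 26.9 and 51 in heads. For both, all 4 hemocyte arrays lay above all 4 two-round carcass arrays. Ag.3L.578.0_CDS_s_at leaned most to carcasses, at 341, 322, 374 and 300.1 against 146, 93.5, 303 and 288 in hemocytes, where replicate 2 came close to the highest head array, 83.5, and replicate 3 reached the range of the carcass arrays. Ag.2R.195.0_CDS_at measured 106, 112, 141 and 126 in two-round carcasses, 56.9, 56.6, 62 and 86.2 in hemocytes and 14.4, 9.77, 15.7 and 10.9 in heads, 3 levels without overlap. After 1 round its carcass values of 46.4, 57.8, 67.8 and 59.7 overlapped the hemocyte values.

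The members also differed in how steady they were between arrays of a tissue. The median SD on the log2 scale was 0.29 in heads, 0.31 in two-round carcasses, 0.36 in hemocytes and 0.41 in one-round carcasses, against 0.31, 0.29, 0.30 and 0.31 for bright probe sets. In hemocytes the highest array was replicate 2 for 47 members and the lowest was replicate 3 for 43, with replicate 2 highest in 35.3% and replicate 3 lowest in 32.2% of bright probe sets. In heads replicate 1 was highest for 49 members, against 33.4% of bright probe sets. In one-round carcasses replicate 3 was highest for 68 members, against 60.9% of bright probe sets, so its high values were shared by most of the array.

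The one-round carcass arrays were the only ones that the choice of members did not use. They do not give an independent check of the difference from heads, because the head arrays helped to choose the members, and labelling differs between these groups. Their replicate numbers pair them with the two-round carcass arrays. Same-numbered arrays deviated together from their group means, with a correlation across probe sets of 0.24 to 0.54, against -0.37 to 0.02 for arrays of different number. The two-round carcass arrays helped to choose the members, so the one-round values are not independent of the choice on the carcass side either. In limma's fit over all 16884 probe sets, 65 of the 105 members were called higher in one-round carcasses than in heads (adjusted p under 0.05 and at least 2-fold) and 0 lower. The corresponding shares of the whole array were 6.37% higher and 13.3% lower. The median difference was 1.27 over the members and -0.16 over all probe sets, and 94 members had a difference above 0. All 4 one-round arrays lay above the highest head array in 70 members, against 9.88% of all probe sets. Most members, though not all, were thus also brighter in one-round carcasses than in heads. Because the head arrays and, in the comparison of labellings, the two-round carcass arrays took part in the choice, the calls are read as descriptions, and differences of single members are given with their SE and no p. These SE come from the fit with no term for the replicate number. Between the carcass labellings they therefore leave out the pairing of arrays.

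Ag.2R.494.0_CDS_at had the largest difference between one-round carcasses and heads. It measured 447, 654, 1421 and 533 after 1 round and 3.53, 5.6, 8.03 and 16.4 in heads, where 1 array was above background, a difference of 4.88 ± 0.46 (SE). After 2 rounds it measured 139.8, 272, 267 and 160.3 in carcasses and 152, 43.5, 273 and 326 in hemocytes, so it was brightest in the arrays the rule did not use. Ag.3L.366.0_CDS_a_at followed with a difference of 3.97 ± 0.36, from 1893, 2617, 2746 and 2551 after 1 round against 131, 155, 134 and 141 in heads. Its hemocyte arrays, 1283, 496, 2120 and 2741, again had replicate 2 as the low one. The 4 members of the widest gap were called as well, with differences from 1.94 ± 0.18 for Ag.2R.623.0_CDS_s_at to 3.90 ± 0.21 for Ag.2L.191.2_s_at.

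The other 40 members were not called in this comparison, and for 11 of them the one-round mean lay below the head mean. Ag.X.1366.0_at was the lowest, with 58.6, 119, 192 and 96.5 in one-round carcasses and 134, 209.6, 149 and 209 in heads (-0.60 ± 0.27). In two-round carcasses it measured 319, 388, 600.0 and 374 and in hemocytes 599.5, 657, 733 and 862. Ag.3R.552.0_CDS_at measured 1.63, 14.2, 33.7 and 19.1 in one-round carcasses and 34.6, 31.8, 15.6 and 24.1 in heads (-0.43 ± 0.30), against 51.2, 81.7, 79.2 and 84.7 in two-round carcasses. For both, the carcass arrays were above all head arrays after 2 rounds and overlapped them after 1 round. With one-round carcass arrays in place of the two-round ones the rule was met by 159 probe sets, of which 49 were among the 105, that is 46.7% of the members and 30.8% of the 159.

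**Figure D4:**
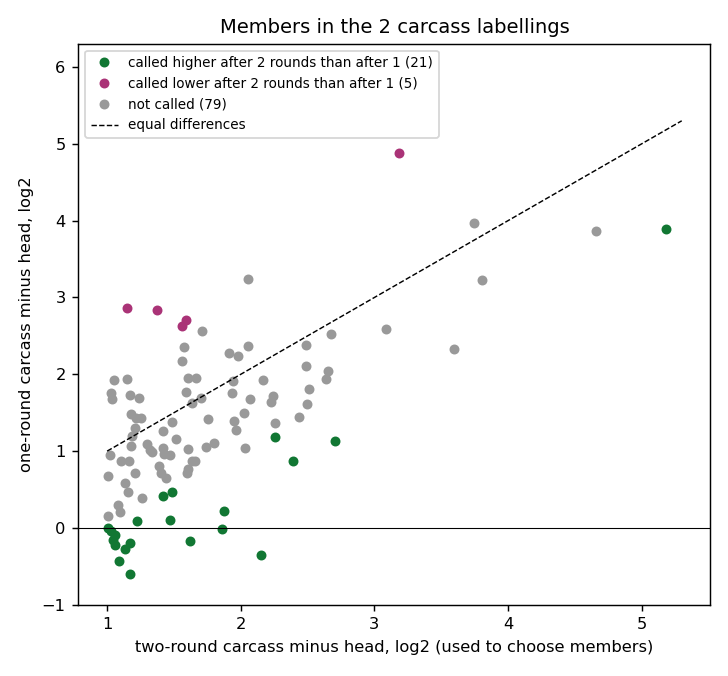
Each point is 1 of the 105 members, placed by its two-round carcass minus head difference (horizontal, used to choose the members) and its one-round carcass minus head difference (vertical), both in log2 units from group means of 4 arrays. Colours give the call between the 2 carcass labellings, 21 higher and 5 lower after 2 rounds, and the dashed line marks equal differences. Green points lie below the line, 11 members lie below 0 on the vertical axis, and Ag.2R.494.0_CDS_at is the highest point at 4.88.

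Between the 2 labellings of carcasses, 21 members (20%) were called higher after 2 rounds than after 1 and 5 (4.76%) lower in limma's fit, against 7.29% and 2.61% of all probe sets. The two-round carcass arrays had to be high for a probe set to be chosen, so the choice itself favours higher calls. Both control ratios moved with the labelling, Gapdh from 27.3 to 41.2 after 2 rounds against 1.41 to 1.93 after 1 and actin from 22.3 to 29.4 against 2.22 to 2.93, and their part in these differences was not tested. The median difference was 0.52 over the members and 0.12 over all probe sets. The split depends on the scaling. With quantile normalization 8 members were called higher and 12 lower (all probe sets 3.48% and 5.05%), and the medians were 0.12 and 0.02. By mark, the median difference was 1.41 for the 3 UTR members, 0.88 for the 14 unmarked and 0.39 for the 88 CDS members, against 0.53, 0.33 and 0.09 for all probe sets of these marks.

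Ag.2L.3944.0_at had the largest difference, from 259.6, 214, 385 and 191 after 1 round to 1985, 1241, 1478 and 1453 after 2 (2.51 ± 0.28 SE). Its head arrays, 570.0, 281, 304 and 235, overlapped the one-round carcass arrays, and its hemocyte arrays read 2961, 3758, 2511 and 1829. Ag.3R.241.0_CDS_at, among the brightest members at 4356 ± 115 in hemocytes (SD, n = 4), measured 4079, 3824, 2315 and 3080 after 2 rounds and 1113, 880.3, 897 and 677 after 1 (1.87 ± 0.19 SE). Its heads read 685, 1063, 1013 and 822, which is the level of one-round carcasses. The order was the opposite for Ag.2R.477.0_CDS_a_at, at 85.1, 127, 195 and 116 after 1 round against 30.9, 31.9, 18.9 and 29 after 2 (-1.71 ± 0.25). Ag.2R.494.0_CDS_at, with the values given above, was lower after 2 rounds by nearly as much (-1.69 ± 0.46). The mean of Ag.2R.477.0_CDS_a_at in one-round carcasses, 131, was above its hemocyte mean of 75.4, although it leaned most to hemocytes when both were labelled by 2 rounds.

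The IDs give features that the rule did not use. By arm, 33 members lay on 2R, 24 on 3R, 18 on 2L, 17 on 3L and 10 on X, and 3 were UNKN. In percent these are 31.4, 22.9, 17.1, 16.2, 9.52 and 2.86, against 27.7, 19.5, 21.1, 15.3, 8.28 and 8.15 of bright probe sets. CDS probe sets made up 83.8% of the members and 80.2% of bright probe sets, and UTR ones 2.86% and 5.93%. The last letters of an ID, by the array maker's usual naming, mark probe sets whose probes match several transcripts of 1 gene (a) or transcripts of different genes (s). There were 34 members with the letter a (32.4%, against 22.6% of bright probe sets) and 22 with the letter s (21%, against 8.28%). The signal of these 22 may come from more than 1 gene, and which gene cannot be told from the array. These shares are descriptions, and no test was made on them.

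The 105 members fell in 100 ID clusters, 5 of which held 2 members each, and such members may share a target and are not separate cases. Cluster 404 on arm 3R held Ag.3R.404.1_CDS_s_at, at 481 ± 271 in hemocytes, 418 ± 132 in two-round carcasses and 133 ± 44.4 in heads (SD, n = 4), and the brighter Ag.3R.404.2_s_at, at 2468 ± 973, 2396 ± 567 and 516 ± 194. In both, hemocyte replicates 1 and 2 were above replicates 3 and 4. Cluster 499 on the same arm held Ag.3R.499.0_CDS_s_at, at 96.5 ± 42.3, 94.1 ± 26.2 and 22.5 ± 13.7, and Ag.3R.499.1_CDS_s_at, at 388 ± 182, 391 ± 93.4 and 51 ± 28.7. In both of these, hemocyte replicate 2 was the highest. Between the carcass labellings, Ag.3R.499.0_CDS_s_at had a two-round minus one-round difference of -1.07 ± 0.29 (SE) and was called lower, and Ag.3R.499.1_CDS_s_at one of 0.61 ± 0.30 and was not called. The difference between the 2 probe sets was not tested. The call was lost without two-round carcass replicate 3 (-0.90) and with a pseudocount of 1 (-1.19) or 64 (-0.81). Cluster 181 on X held Ag.X.181.0_CDS_a_at, at 88.5 ± 11.6, 62.6 ± 15.7 and 10.7 ± 7.3, and Ag.X.181.1_a_at, at 807 ± 135, 426 ± 82.3 and 122 ± 69.2. Cluster 737 on 2R held Ag.2R.737.1_CDS_a_at, at 34.9 ± 9.17, 37 ± 15.2 and 8.79 ± 5.94, and Ag.2R.737.2_a_at, at 68 ± 19.2, 62 ± 15.2 and 16.6 ± 8.02.

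Cluster 704 on arm 2R held a CDS and a UTR probe set, both members. Ag.2R.704.0_CDS_a_at measured 757 ± 203 in hemocytes, 1217 ± 502 in two-round carcasses and 267 ± 73.5 in heads (SD, n = 4), and Ag.2R.704.0_UTR_a_at 1129 ± 469, 1478 ± 659 and 442 ± 66.6. After 1 round the CDS probe set stayed at 430.5, 798, 1935 and 857 in carcasses, 1.68 ± 0.37 above heads (SE). The UTR probe set read 213, 326, 948 and 341, and its difference from heads was -0.17 ± 0.39, with the opposite sign, 0.30, under quantile normalization. Between the carcass labellings the CDS probe set differed by 0.39 ± 0.37 and the UTR probe set by 1.79 ± 0.39, with SE that leave out the pairing. The difference between the 2 probe sets was not tested. Both had carcass replicate 3 as their highest array in both labellings.

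The array held 25 further probe sets in 22 of the 100 clusters, and these were not members. Of them 24 were bright. Both the hemocyte and the two-round carcass mean lay above the head mean in 19 of the 25. This held for 28.9% of all probe sets and 29.3% of bright ones. Both lay at least 1 above it in 5 of the 25, against 1.72% of all and 2.23% of bright probe sets. In all 5 the hemocyte and carcass means were more than 1 apart, and in 1 of them, Ag.X.71.1_CDS_a_at, the head and carcass arrays overlapped as well. In 2 neither mean was above the head mean. The 25 share clusters with members chosen for this pattern and may read the same transcripts, so these counts are descriptions and no separate support.

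The other probe sets of cluster 191 on 2L, that of the most widely separated member, were low in heads as well. Ag.2L.191.0_CDS_s_at measured 40.5 ± 26.2 in heads, 1087 ± 56.7 in hemocytes and 2531 ± 577 in two-round carcasses (SD, n = 4). Ag.2L.191.1_CDS_a_at measured 5.44 ± 1.95 in heads, 167 ± 28.6 in hemocytes and 409.5 ± 132 in two-round carcasses, and was below background on all 4 head arrays. Both missed the rule only through the distance between hemocytes and carcasses. In cluster 71 on X, Ag.X.71.1_CDS_a_at measured 5181 ± 3880 in hemocytes, 814 ± 163 in two-round carcasses and 405 ± 196 in heads, a wider step between hemocytes and carcasses than in its member Ag.X.71.2_s_at.

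Other clusters held probe sets that did not share the pattern. As given above, 19 of the 25 had hemocyte and two-round carcass means that both exceeded the head mean. Ag.2R.2522.1_at was nearly level, at 465 ± 56.3 in heads, 591 ± 71.1 in hemocytes and 535 ± 32.3 in two-round carcasses (SD, n = 4); the member of that cluster averaged 90.7 ± 11.3, 1471 ± 713 and 1479 ± 222. Ag.2R.477.0_UTR_a_at was detected in heads, at 142 ± 81.7, against 246 ± 48.2 in hemocytes and 101 ± 35.9 in two-round carcasses. The CDS member of the same cluster was below background on all 4 head arrays. Ag.3L.1690.1_CDS_at was dim everywhere, at 20.8 ± 4.85 in hemocytes and below background on all 4 two-round carcass arrays. Ag.3L.578.2_CDS_s_at measured 32 ± 7.38 in two-round carcasses, 14.3 ± 7.12 in heads and 8.09 ± 5.75 in hemocytes. Whether probe sets of a cluster read 1 gene is not given in the sources used here.

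**Figure D5:**
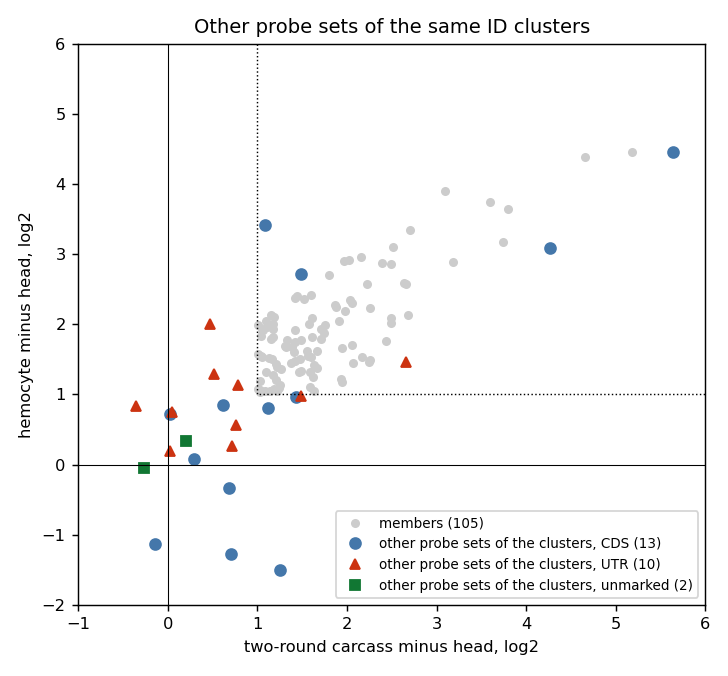
Each point is a probe set placed by its two-round carcass minus head (horizontal) and hemocyte minus head (vertical) log2 difference, from group means of 4 arrays. Grey points are the 105 members, all above 1 on both axes by the rule (dotted lines), and coloured points are the 25 other probe sets of their clusters, 13 CDS, 10 UTR and 2 unmarked. Of the coloured points, 19 are above 0 on both axes and 5 above 1 on both.

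Among probe sets outside the set, those whose log2 values over the 16 arrays were most like those of Ag.2L.191.2_s_at were led by its cluster partner Ag.2L.191.0_CDS_s_at (r = 0.99). Ag.3L.140.0_CDS_a_at followed with r = 0.95, at 1050 ± 156 in heads, 2068 ± 263 in hemocytes and 2553 ± 81.3 in two-round carcasses (SD, n = 4). Ag.2L.1092.1_a_at had r = 0.92, at 23.7 ± 12.7 in heads, 577 ± 421 in hemocytes and 1474 ± 577 in two-round carcasses. Among the members, 11 others correlated above 0.9 with it. These correlations are descriptions over 16 arrays in 4 groups, and the group means of 3 of these chose the members.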

How the data were processed

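RNA of heads, carcasses and hemocytes was measured on 16 Affymetrix arrays, 4 per group. The deposited table gives 22761 probe sets a linear intensity on each array. GCOS 1.4 was the software per the submitters' processing notes, and how it summarised and scaled the intensities is not given in the sources used here. The number of arrays limits the precision. Groups came from the labels. Intensities were taken as log2(intensity + 16) with no further normalization, which understates differences of dim probe sets, and the 16884 mosquito probe sets were fitted with limma 3.58.1 in R 4.3.3, with 4 groups in 1 fit and Benjamini-Hochberg adjustment. A call is an adjusted p under 0.05 and at least a 2-fold difference. The fit was tested on simulated data.

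The members and lists were chosen with earlier results of these data known. Probe sets named singly are those with the widest gap, the highest level, the largest bound, the extremes of each difference, those sharing an ID cluster, and those most like the most widely separated member. Replicate numbers pair the 2 carcass groups, from the check of deviations (0.24 to 0.54), and not heads with one-round carcasses (-0.01 to 0.20). Alternatives changed the pseudocount, scaling, background, thresholds, block and arrays.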

Additional observations from a re-analysis of the deposited data

Results flagged for a closer look

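Among the 28 members named singly and the median over all members, 5 of 116 groups of 4 arrays had 1 array set far apart from the other 3, and chance alone gives about 1 in 20. Ag.2L.191.2_s_at read 1915 in two-round carcass replicate 1, above the others at 1502 to 1540. Ag.3R.552.0_CDS_at read 51.2 in the same replicate, below the others at 79.2 to 84.7. Ag.2R.737.2_a_at read 39.3 in two-round carcass replicate 3, below 67.9 to 70.4. In heads, Ag.2R.3723.0_s_at read 26.9 in replicate 3, below 46.2 to 51.0, and Ag.3R.404.2_s_at read 232 in replicate 1, below 547 to 648. No array held more than 2 of the 5.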

How the results depend on the processing

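The number of members was 55 with a pseudocount of 64, 22 with a rise of at least 2 over heads, 67 with hemocyte and carcass means within 0.5, 159 with one-round carcass arrays, and 100 to 134 when 1 array was left out. Members below background on all 4 head arrays numbered 23 with background at the 99th percentile and 13 to 17 when 1 head array was left out. Calls of one-round carcasses over heads fell to 42 with a pseudocount of 64, where 3.77% of all probe sets were called. They were 59 to 69 without 1 array. The median of that difference was 1.75 with a pseudocount of 1, 0.81 with 64, 1.66 with quantile normalization and 1.19 to 1.36 without 1 array. Calls of two-round over one-round carcasses numbered 13 with a pseudocount of 64 and 8 with quantile normalization (all probe sets 3.59% and 3.48%). They numbered 37 with no fold minimum and 15 to 27 without 1 array. Lower calls numbered 12 with quantile normalization (all probe sets 5.05%), 8 with no fold minimum and 4 to 5 without 1 array. Shares of all probe sets were not taken with no fold minimum or without 1 array. The median difference between the carcass labellings was 0.12 with quantile normalization and 0.43 to 0.63 without 1 array. The cause of these shifts was not tested.

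With the replicate block, 65 members were called higher in one-round carcasses than in heads, and 20 were called higher and 5 lower after 2 rounds than after 1. The corresponding shares of all probe sets were 6.46%, 7.33% and 2.65%. With the block in the carcass pairs alone, an alternative chosen after seeing the data, the counts were 22 and 6. There 7.59% and 2.76% of all probe sets were called. The block therefore moved no count of calls by over 1.5 times.

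For one-round carcasses minus heads the sign turned for Ag.2L.3944.0_at (0.13 with quantile normalization), for Ag.2R.704.0_UTR_a_at (0.30 with quantile normalization, and -0.58 to 0.11 without 1 array, the highest without one-round carcass replicate 1) and for Ag.3R.241.0_CDS_at, whose main value was -0.007. The last was 0.35 with quantile normalization, 0.16 with median centring and -0.13 to 0.12 without 1 array, above 0 at 0.08 and 0.06 without head replicates 2 and 3 and at 0.12 without one-round carcass replicate 4. For two-round minus one-round carcasses it turned for Ag.2R.704.0_CDS_a_at (-0.063 with quantile normalization). None of these 4 values was called in the main comparison. Over the other single members and settings, 827 values kept direction and call, 21 lost and 11 gained the call. The array signal limits the 13 members below background in heads to bounds.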

Other observations

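The mirrored rules gave sets of other sizes. With hemocytes as the low tissue the same conditions were met by 522 probe sets, and with carcasses as the low tissue by 65. UTR probe sets made up 2.86% of the set low in heads, 14.9% of the set low in hemocytes and 10.8% of the set low in carcasses. Probe sets with the letter s made up 21%, 9.2% and 15.4%. Those with the letter a made up 32.4%, 34.5% and 9.23%. These shares carry no test.

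Head replicate 4, whose source name reads as a carcass pool, had a correlation of 0.968 with the remaining heads and of 0.861 with carcasses after 2 rounds. Head replicate 3 gave 0.977 and 0.861. The lowest correlation with the remaining heads was that of head replicate 1, at 0.937, with 0.838 for two-round carcasses. Without head replicate 1 the rule was met by 134 probe sets, 97 of them members. Of the 917 probe sets with a mean of at least 1000 in hemocytes, 0 were below background on all 4 carcass arrays and 0 on all 4 head arrays. Of the 788 as bright in two-round carcasses, 16 were below background on all 4 head arrays.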
